A study of Rattus norvegicus with 32 samples.

Results

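Amino acid breakdown in rat liver was followed through 9 genes, chosen by name for their role: the aminotransferase genes Got1, Got2, Gpt and Tat, and Sds, Aass, Tdo2, Hal and Gls2, whose enzymes start the breakdown of single amino acids. Earlier results of these data were known when the 9 genes were chosen. Each gene was read by its brightest probe set that the platform annotation ties to 1 gene. All 9 were among the 11625 genes tested, out of 13437 genes with such a probe set, and all 9 passed the filter on low values, since their mean log2 levels lay between the 97.5th and the 99.8th percentile. Livers came from male Wistar Kyoto rats of 10 weeks and 250 to 300 g, which breathed ozone at 1 ppm or filtered air for 6 h per day. Livers were taken right after the first exposure (6 arrays of ozone livers and 6 of air livers), right after the second (5 and 5), or 18 h after the second (5 and 5). The labels name no other treatment, and each harvest time had its own air group. Whether each array was a separate animal is not stated in the labels, so the p-values measure the spread between these samples, and the number of arrays limits the precision.

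The liver breaks down surplus amino acids by first removing the amino group. Aminotransferases pass it to alpha-ketoglutarate to make glutamate, whereas dehydratases, lyases and glutaminase release it as ammonia, which the urea cycle takes up. The remaining carbon feeds glucose synthesis, the citric acid cycle or ketone bodies, and glucagon and glucocorticoids are known to raise several of these enzymes in fasting liver. Bulk liver RNA cannot tell fewer cells of a type from less RNA per cell.

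Upstream sequences are shown for 4 of the genes: Got1 and its paralog Got2, whose levels differed most in how far they moved on day 1, and Aass and Gls2, the members whose windows held a short motif searched for, TGACG. They are the 250 bases before a transcript start in RefSeq (build GRCr8), 5′ to 3′ on the strand of the gene, with TGACG or TGTTCT, on either strand, in capitals. The table used had a window for 6 of the 9 genes, and Gpt, Hal and Sds were not among them. Got1 (chr1:252329872-252330121, minus strand) has a window inside the annotated span of the gene, which runs from 252306541 to 252337622.
Got1: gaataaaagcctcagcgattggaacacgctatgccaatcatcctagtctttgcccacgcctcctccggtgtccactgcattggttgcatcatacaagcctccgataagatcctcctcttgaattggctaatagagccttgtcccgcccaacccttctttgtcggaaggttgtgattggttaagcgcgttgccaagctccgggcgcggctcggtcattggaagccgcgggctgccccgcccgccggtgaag
Got2 (chr19:9180178-9180427, plus strand) lies just before the annotated gene.
Got2: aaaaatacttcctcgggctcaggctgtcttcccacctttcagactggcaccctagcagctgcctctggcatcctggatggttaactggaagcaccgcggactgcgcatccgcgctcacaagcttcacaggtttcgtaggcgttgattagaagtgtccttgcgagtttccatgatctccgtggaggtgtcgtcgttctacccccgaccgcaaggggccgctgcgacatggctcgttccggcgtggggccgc
Aass (chr4:52628812-52629061, minus strand) also lies just before its gene.
Aass: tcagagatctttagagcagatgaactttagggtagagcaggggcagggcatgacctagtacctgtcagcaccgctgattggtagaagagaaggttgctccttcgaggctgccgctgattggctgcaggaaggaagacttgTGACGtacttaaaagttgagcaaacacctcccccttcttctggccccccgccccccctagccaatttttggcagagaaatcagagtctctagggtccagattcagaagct
The Gls2 window (chr7:1201629-1201878, plus strand) is the first of 2 in the table. It runs into the annotated span of the gene, which starts at 1201757.
Gls2: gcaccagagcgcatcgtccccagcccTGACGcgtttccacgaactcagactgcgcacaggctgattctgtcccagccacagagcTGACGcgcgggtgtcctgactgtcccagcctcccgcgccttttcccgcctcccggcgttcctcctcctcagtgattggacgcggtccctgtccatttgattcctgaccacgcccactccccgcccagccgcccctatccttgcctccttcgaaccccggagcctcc
In the same build the other protein-coding genes lie at chr2:169567656-169585586 (Tdo2), chr7:29894495-29924744 (Hal), chr7:110295599-110300134 (Gpt), chr12:41743796-41751108 (Sds) and chr19:54856604-54867168 (Tat), and the genes Got2, Aass and Gls2 at chr19:9180428-9206113, chr4:52572146-52628811 and chr7:1201757-1218014. The search covered the 250 bases before and 50 after each start, on both strands. TGACG, the core of the cAMP response element and part of the full element TGACGTCA, began at position -110 in Aass and at positions -224 and -166 in Gls2, and 21.2% of the 33469 windows of this length held it. TGTTCT, one arm of the glucocorticoid response element, was in 0 of the 7 windows of the members, against 20.7% of all windows. The full elements, TGACGTCA (1.83% of all windows) and AGAACA with TGTTCT after any 3 bases (0.0149%, overlapping its arm), were in 0 of the 7. TATAAA, present in 14.2% of all windows, began at position -228 in the window of Tdo2 and was in no other member window. A match is a run of letters and not a measured binding site.

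The median intensity of an array lay between 146.6 and 160.6, and no pair of arrays was identical. Of the 32 arrays, 7 correlated better, across genes, with another group than with their own. Among them were day 2 air replicate 5 (r = -0.52 with its own group, 0.60 with day 2 ozone) and day 2 ozone replicate 5 (r = -0.25 with its own group, 0.66 with ozone at 18 h). Both also ran against their labels in the genes described here. On the library labelled day 2 air replicate 5, 8 of 9 members lay nearer the mean log2 level of the other exposure than that of their own group. On the library labelled day 2 ozone replicate 5, 7 of 9 did. The mean of the own group left out the array in question, while that of the other exposure held all its arrays. Whether the labels of these arrays were exchanged was not tested. The labels were kept, and an exchange would change every day 2 value with all arrays. Results that rest on them are given with both and without both. That choice was made after the data were seen, and leaving out arrays because they lie far from their group widens the gap between groups by itself. Air replicates 1 and 5 at 18 h also lay nearer another group (r of 0.26 and 0.10 with their own). Probes for nonspecific binding read 54.3 on day 1 air replicate 2 and 66.1 on day 1 ozone replicate 3, and 85.2 to 92.0 elsewhere. The hepatocyte markers were bright, with albumin (Alb) at a median of 13224, and 0 of 8 of them passed the test at any harvest time. The neutrophil markers S100a8, Cxcr2 and Csf3r lay below the filter, at medians of 114.4, 95.5 and 110.1. S100a9, the 1 neutrophil marker tested, had a median of 164.8 and did not pass at any harvest time.

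**Figure D1:**
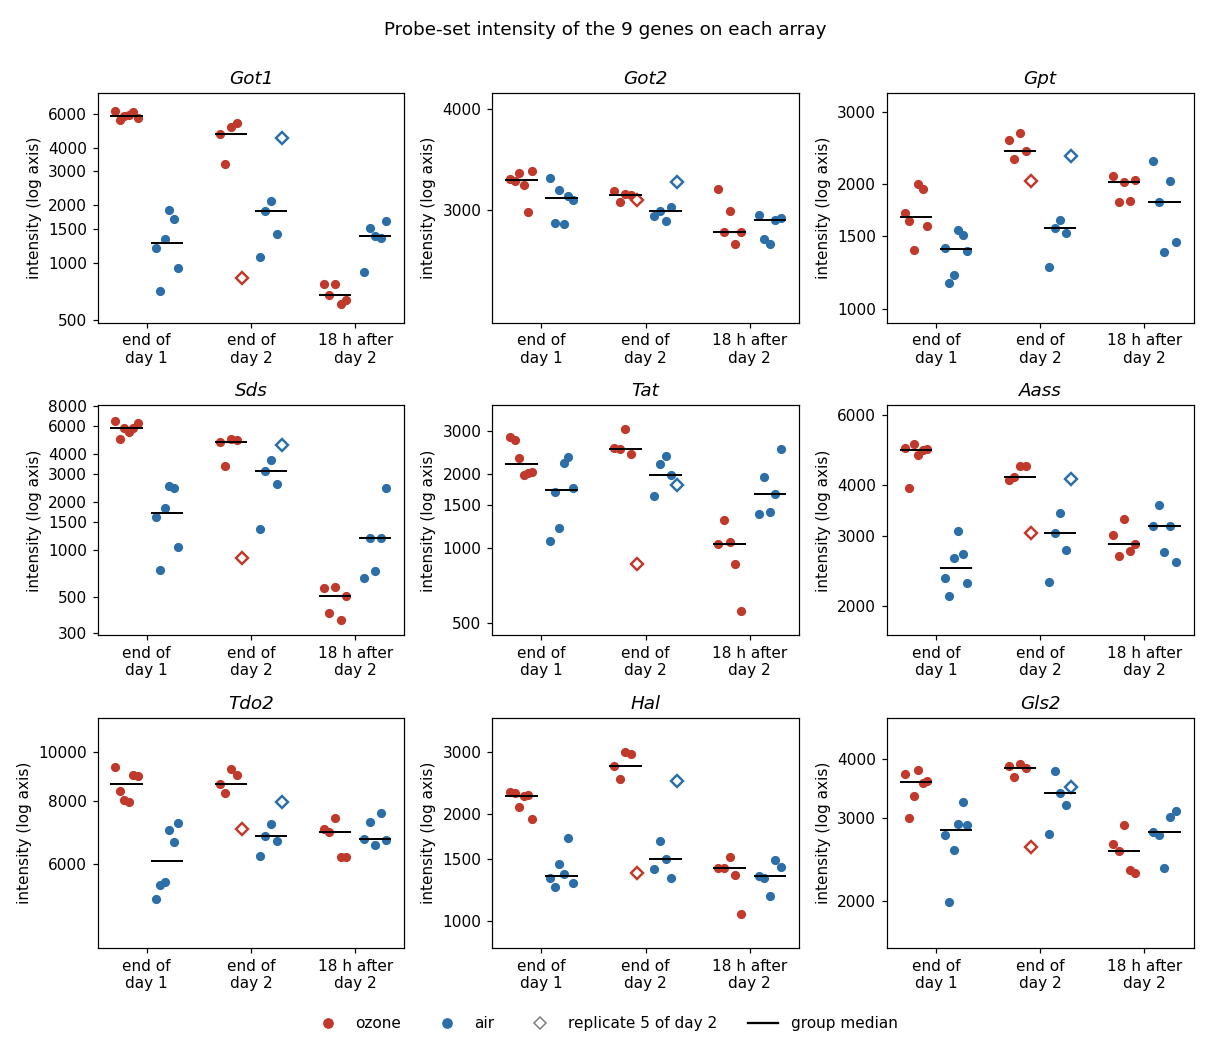
Probe-set intensity of the 9 genes on each of the 32 arrays, on log axes, with ozone arrays in red to the left of air arrays in blue and a bar at each group median. Open diamonds mark replicate 5 of both day 2 groups: Got1 read 829.9 on the ozone one and 4468 on the air one.

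The first comparison asked how the liver differed at the end of the first exposure. On day 1, 7 of the 9 genes rose and 0 fell (limma, adjusted p under 0.05). Got1 and Sds rose most, by 2.25 and 1.89 on the log2 scale, followed by Aass, Hal, Tdo2, Gls2 and Gpt, while Tat and Got2 did not pass the test. Of all genes tested, 13.1% passed with a higher level after ozone and 16.4% with a lower one. The median difference of the 9 genes was 0.49, against 0.00 over all genes tested, and all 9 differences were positive, as were 51.7% of those of all genes. In 5 of the 9 genes (Got1, Sds, Aass, Tdo2 and Hal) the lowest ozone array lay above the highest air array, and this held for 7.19% of all genes tested.

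Got1 makes the cytosolic aspartate aminotransferase, which moves the amino group between aspartate and glutamate and works in the malate-aspartate shuttle. Its intensity ran from 5572 over a median of 5872 to 6194 on the 6 day 1 ozone arrays, and from 711 over 1262 to 1887 on the 6 air arrays. Every ozone array was high and close to the next, whereas the air arrays were spread out: the log2 level was 12.53 ± 0.06 after ozone and 10.28 ± 0.52 after air (SD, n = 6 each). The rise was 4.75-fold (log2 difference 2.25 ± 0.32, SE; limma adjusted p = 3.97e-06), the 2nd largest positive difference of the 11625 genes. Got2, the mitochondrial partner of the same reaction, ran from 2983 over 3266 to 3350.5 after ozone and from 2884 over 3105 to 3290.4 after air. The groups overlapped for most of their range, and the log2 difference was 0.07 ± 0.04 (adjusted p = 0.174). A further Got2 probe set read 68.6 to 135.9 and lay below the filter.

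Gpt makes alanine aminotransferase, which turns alanine into pyruvate. It read 1386, 1666 and 2000.2 (lowest, median, highest) after ozone and 1155, 1393 and 1547 after air. The groups overlapped, and the rise of 0.32 ± 0.12 passed narrowly (adjusted p = 0.0449). Without 1 array at a time the adjusted p of Gpt was 0.0611, 0.0562, 0.113 and 0.104 without ozone replicates 1, 2, 4 and 5 of day 1, and 0.0541, 0.11, 0.097 and 0.0625 without air replicates 1, 2, 3 and 6. Without the arrays of low nonspecific signal (ozone replicate 3 and air replicate 2) it was 0.0592, and the other 6 genes still passed. Tat makes tyrosine aminotransferase, the first enzyme of tyrosine breakdown and a long-known glucocorticoid target in rat liver. It read 1977, 2189 and 2829 after ozone and 1072, 1730.5 and 2348 after air. The ranges overlapped, and the log2 difference of 0.47 ± 0.23 did not pass (adjusted p = 0.129). It passed without day 2 ozone replicate 5, an array of another harvest time that sets the shared spread (adjusted p = 0.0472), and without both replicates 5 of day 2 (0.0475).

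Sds makes serine dehydratase, which turns serine into pyruvate and ammonia. It ran from 4977.5 over 5843 to 6488 on the day 1 ozone arrays and from 749.8 over 1713 to 2532 on the air arrays. As for Got1, all ozone arrays were high and the air arrays scattered, with log2 levels of 12.51 ± 0.14 after ozone and 10.62 ± 0.69 after air (SD, n = 6 each). The rise was 3.71-fold (1.89 ± 0.35; adjusted p = 0.000117), the 3rd largest positive difference of all genes tested.

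Aass, Tdo2, Hal and Gls2 open the breakdown of lysine, tryptophan, histidine and glutamine. They were 4 of the 7 members that rose on day 1, when 13.1% of all genes tested rose. Tat, which opens the breakdown of tyrosine, did not pass. Aass, the bifunctional enzyme of the first steps of lysine breakdown, read 3942, 4909 and 5056 (lowest, median, highest) after ozone and 2118, 2496 and 3084 after air. No air array reached the lowest ozone array, and the rise was 0.91 ± 0.11 (1.88-fold; adjusted p = 4.54e-07). Hal, histidine ammonia-lyase, which takes ammonia off histidine, read 1936, 2261 and 2313 after ozone and 1250.4, 1339 and 1717 after air. It rose by 0.65 ± 0.14 (adjusted p = 0.00071). Tdo2, tryptophan dioxygenase, which opens the ring of tryptophan, read 7968, 8660.5 and 9324 after ozone and 5134, 6094 and 7228 after air. It rose by 0.49 ± 0.08 (adjusted p = 1.47e-05), a smaller difference than that of Aass, with groups that did not overlap either. Gls2, the liver-type glutaminase, which splits glutamine into glutamate and ammonia, read 2993, 3569.6 and 3789 after ozone and 1987, 2831 and 3245 after air. Its groups overlapped, and it rose by 0.37 ± 0.10 (adjusted p = 0.00564).

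Beside these rises, 2 of 8 Kupffer cell and macrophage markers fell on day 1, Lyz2 by 0.63 ± 0.09 (adjusted p = 3.75e-06) and Adgre1 by 0.27 ± 0.10 (adjusted p = 0.049). Their summed intensity was 3994 to 6322 (median 4791) after ozone and 5120.0 to 6217 (median 5880.0) after air. Among periportal hepatocyte markers 1 of 7 rose (Ass1, 0.27 ± 0.08) and 1 fell (Pck1, -0.37 ± 0.06). Among pericentral markers 2 of 8 rose (Oat, 0.49 ± 0.14, and Axin2, 0.11 ± 0.04) and 1 fell (Rgn, -0.27 ± 0.07). Oat is also counted below among the genes of transamination and glutamate. In each of the stellate (8 tested), endothelial (5), cholangiocyte (4) and pancreas (6) lists 1 marker fell, and 0 of 5 lymphocyte and 0 of 3 erythroid markers passed. The summed hepatocyte markers were 62854 to 68768 after ozone and 65404 to 68621 after air. Of all genes tested, 13.1% rose and 16.4% fell on day 1, so 1 or 2 calls in a short list are given as a description only. The part of other cell types in the 7 rises was not tested.

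**Figure D2:**
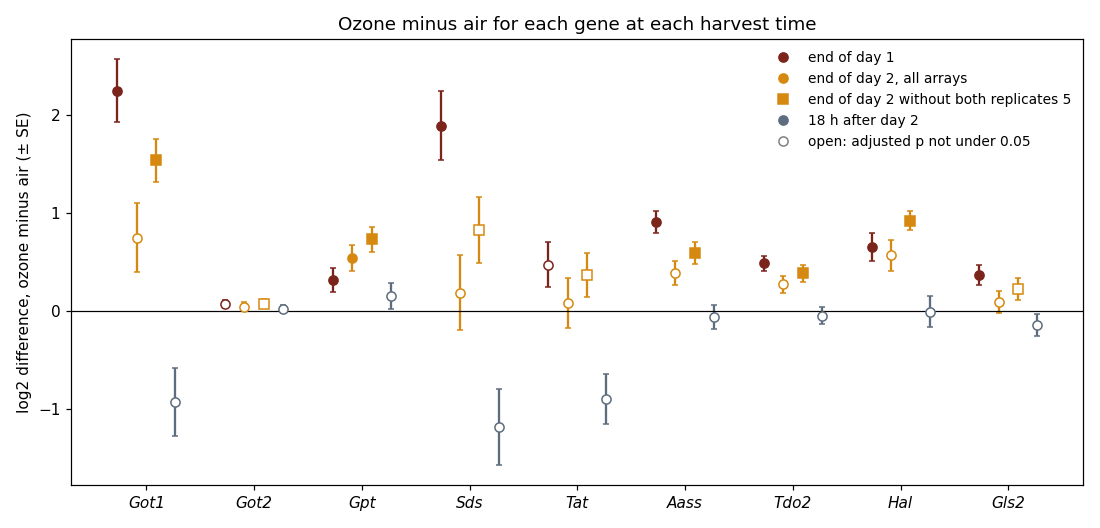
Difference of ozone minus air (log2 scale, ± SE) of each gene at each harvest time, with day 2 shown from all arrays (circles) and without both replicates 5 (squares). Filled symbols have a limma adjusted p under 0.05; Got1 lies at 2.25 on day 1 and at -0.93 at 18 h, and Got2 near 0 throughout.

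The second comparison asked whether the difference was still there at the end of the second exposure. On day 2, 1 of the 9 genes rose and 0 fell with all arrays, and the gene was Gpt (0.54 ± 0.13; limma adjusted p = 0.0451), while 0.465% of all genes tested rose and 0.241% fell. Without both replicates 5, 5 of the 9 rose (Got1, Hal, Gpt, Aass and Tdo2) and 0 fell, beside 6.25% and 6.49% of all genes. The median difference of the 9 genes was 0.27 with all arrays, against 0.00 over all genes. Leaving out single arrays changed the number of rises: 5 without ozone replicate 5 (Got1 at 1.23 ± 0.27, adjusted p = 0.0133) and 4 without air replicate 5 (Got1 not among them). Calls over all genes grew too, to 4.35% without ozone replicate 5 and 8.4% without air replicate 5, in either direction.

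Gpt read 2558, 2309, 2666, 2407 and 2042.5 on day 2 ozone replicates 1 to 5, and 1259, 1564, 1641, 1523 and 2345 on air replicates 1 to 5. Apart from air replicate 5, all air arrays were below all ozone arrays. Its call was lost without ozone replicate 1, 2, 3 or 4 of day 2 (adjusted p = 0.136, 0.0666, 0.12 and 0.138) and without air replicate 1, 2, 3 or 4 (0.109, 0.152, 0.14 and 0.186). It was also lost, at 0.0503 to 0.0537, without any 1 of 10 arrays of the other times, namely ozone replicate 2 and air replicates 3, 5 and 6 of day 1, and all 5 ozone arrays and air replicate 4 at 18 h. Without both replicates 5 of day 2 the difference was 0.73 ± 0.13 (adjusted p = 0.000162).

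Got1 read 4740.4, 3291, 5119, 5349 and 829.9 on day 2 ozone replicates 1 to 5, and 1069, 1854, 2115, 1406 and 4468 on air replicates 1 to 5. The ozone arrays were high except replicate 5, and the air arrays low except replicate 5. With all arrays the log2 difference was 0.75 ± 0.35 (adjusted p = 0.354), and without both replicates 5 it was 1.54 ± 0.22 (adjusted p = 1.95e-05). Hal showed the same split, with 2750.0, 2521, 2997, 2975 and 1365 after ozone and 1402, 1685.5, 1499.9, 1322 and 2482.5 after air. Its difference was 0.57 ± 0.16 (adjusted p = 0.0711), and 0.92 ± 0.10 (adjusted p = 4.12e-07) without both. Hal passed also without ozone replicate 5 alone (adjusted p = 0.00188) or air replicate 5 alone (0.00211).

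Aass read 4127, 4192, 4463, 4473.5 and 3051 on the day 2 ozone arrays and 2294, 3051, 3416, 2758 and 4155 on the air arrays. Here too replicate 5 was the lowest ozone array and the highest air array. The difference was 0.39 ± 0.12 (adjusted p = 0.107) with all arrays, 0.59 ± 0.11 (0.000377) without both, 0.49 ± 0.12 (0.02) without ozone replicate 5 and 0.50 ± 0.12 (0.00646) without air replicate 5. Tdo2 ranged from 7045 to 9256 after ozone and from 6241 to 7980.3 after air, with a difference of 0.27 ± 0.08 (adjusted p = 0.101). For Tdo2 the difference was 0.38 ± 0.08 (adjusted p = 0.00226) without both, and it passed without ozone replicate 5 (0.0219) or air replicate 5 (0.0173).

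Sds and Tat did not pass on day 2 in either fit. Sds read 4779, 3379, 5018, 4920.2 and 879.8 after ozone and 1352, 3118, 3669.6, 2585 and 4560.5 after air. Unlike Got1, Sds was high on most air arrays too, and the difference was 0.19 ± 0.39 (adjusted p = 0.964), or 0.82 ± 0.33 (0.112) without both replicates 5. Tat read 2552, 2520.3, 3036, 2403 and 864 after ozone and 1635, 2196, 2373.5, 1978 and 1813.5 after air. Its 4 other ozone arrays lay above every air array, and the difference was 0.08 ± 0.25 (adjusted p = 0.986), or 0.37 ± 0.22 (0.36) without both. The signs of these differences turned in 1 case each: Sds was at -0.08 ± 0.39 without air replicate 1, and Tat at -0.05 ± 0.26 without ozone replicate 3. Gls2 differed by 0.10 ± 0.11 (adjusted p = 0.871) and Got2 by 0.05 ± 0.04 (adjusted p = 0.801), and neither passed without both replicates 5. With all arrays 0 of the 9 genes had groups that did not overlap, beside 1.06% of all genes with ozone higher. Among the 4 remaining arrays of each group, 7 of the 9 genes had ozone arrays all above the air arrays (all but Sds and Gls2), and so did 8.08% of all genes tested. Beside these values, 1 of 8 Kupffer cell and macrophage markers fell on day 2 (Lyz2, by 0.40 ± 0.10) and 1 of 7 periportal markers rose (Hsd17b13, by 0.28 ± 0.06). Of all genes tested, 0.465% rose and 0.241% fell. The part of these cell types was not tested.

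The third comparison set ozone against air 18 h after the second exposure. With all arrays 0 of the 9 genes passed the test in limma, 3 had an unadjusted p under 0.05 (Got1, Sds and Tat, each lower after ozone). Of all genes tested, 1.17% passed the test in either direction and 12.1% had an unadjusted p under 0.05. These 3 genes were also those whose groups did not overlap, with every ozone array below every air array, as for 0.869% of all genes. Without both replicates 5 of day 2, which leaves the 18 h values as they are and narrows the shared spread, 3 of 9 fell (Got1, Sds and Tat), beside 0.826% of all genes. The median difference of the 9 genes was -0.06, against 0.01 over all genes.

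Got1 read 775.5, 682, 772.5, 607 and 641 on the 5 ozone arrays at 18 h and 899, 1523, 1374, 1341 and 1647 on the 5 air arrays. The ozone arrays lay close together and below all air arrays. The log2 difference was -0.93 ± 0.35 (0.526 times the air level; adjusted p = 0.226, or 0.00917 without both replicates 5 of day 2). Sds read 571, 401, 586, 360.5 and 513 after ozone and 665, 1178, 732, 1179 and 2429.6 after air. Its difference was -1.18 ± 0.39 (0.44 times the air level; adjusted p = 0.129, or 0.026 without both). Tat read 1042, 1302, 1058, 867 and 556 after ozone and 1382, 1951, 1409.6, 1662 and 2530.1 after air. The highest ozone array fell just short of the lowest air array, and the difference was -0.89 ± 0.25 (0.538 times the air level; adjusted p = 0.0718, or 0.0127 without both). By single arrays, Sds passed without day 2 ozone replicate 5 (adjusted p = 0.0394), and Tat passed without that array (0.0178) or without 18 h air replicate 1 (0.0377). The lowest Tat value, 556, was on 18 h ozone replicate 5, whose ratio of 3′ to 5′ beta-actin signal was 3.50, against 2.16 to 2.89 on the other arrays, and without it the Tat difference was -0.71 ± 0.26 (adjusted p = 0.24).

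The other 6 genes were near their air level at 18 h. Their log2 differences ran from -0.14 ± 0.11 for Gls2 to 0.15 ± 0.13 for Gpt, with adjusted p-values from 0.695 to 0.993. Aass ranged from 2671 to 3298 after ozone and from 2575 to 3574 after air, Tdo2 from 6193 to 7402 after ozone and from 6564 to 7594 after air, and Hal from 1048 to 1517 after ozone and from 1178 to 1487 after air. In all 6 the groups overlapped. Beside the 18 h values, the summed Kupffer cell and macrophage markers read 3648 to 4681 after ozone and 4766 to 5352 after air, without overlap, though 0 of 8 of them passed the test. In each of the periportal (7 tested) and endothelial (5) lists 1 marker rose (Hsd17b13 by 0.24 ± 0.06, Stab2 by 0.28 ± 0.07). In the pancreas list (6) 1 fell (Cela1 by 0.41 ± 0.09). Of all genes tested, 0.86% rose and 0.31% fell at 18 h. The part of these cell types was not tested. The small differences of Hal, Aass and Got2 changed sign when some arrays were left out.

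**Figure D3:**
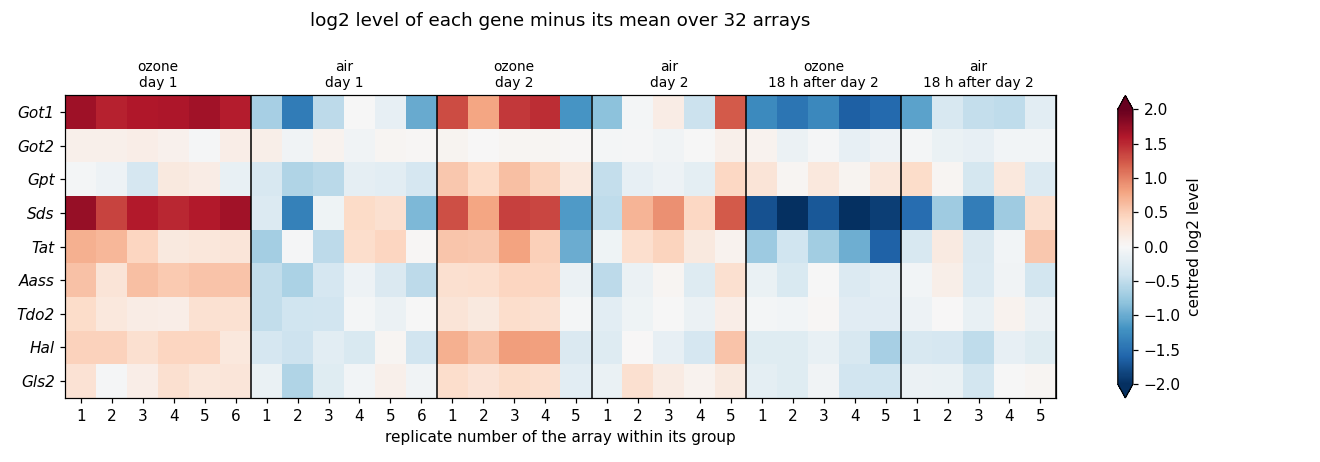
Log2 level of each of the 9 genes minus its own mean over the 32 arrays, 1 column per array and ozone before air at each harvest time; red is above that mean and blue below. The day 1 ozone columns are red for Got1 and Sds, the 18 h ozone columns are blue for Got1, Sds and Tat, and replicate 5 of both day 2 groups stands out from its neighbours.

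The ozone effects of different harvest times were then compared with each other as differences of differences, 18 h minus day 1. These groups are different samples that differ in exposure days (2 against 1) and in hours after exposure (18 against 0). The parts of these differences cannot be told apart. In 7 of the 9 genes the effect at 18 h was lower than on day 1 and in 0 it was higher, beside 7.96% and 12.4% of all genes tested. Got1 changed by -3.17 ± 0.48 (limma adjusted p = 3.59e-05), Sds by -3.08 ± 0.52 (0.000127) and Tat by -1.37 ± 0.34 (0.00447). Got1 and Sds were above air on day 1 and below it at 18 h. The changes of Aass (-0.97 ± 0.16; 0.000128), Hal (-0.66 ± 0.21; 0.025), Tdo2 (-0.53 ± 0.11; 0.00108) and Gls2 (-0.51 ± 0.15; 0.0142) joined a rise on day 1 to a level near air at 18 h. Hal no longer passed without 18 h ozone replicate 5 (adjusted p = 0.0598). That array had the beta-actin ratio of 3.50 and the lowest Hal value of its group, 1048. Gpt (-0.16 ± 0.18; adjusted p = 0.624) and Got2 (-0.05 ± 0.06; adjusted p = 0.652) did not pass. In the same contrast the Kupffer cell marker Lyz2 (0.64 ± 0.13), the endothelial marker Stab2 (0.48 ± 0.09), the cholangiocyte marker Epcam (0.53 ± 0.11) and the pericentral marker Rgn (0.30 ± 0.10) had a higher ozone effect at 18 h than on day 1. The periportal marker Ass1 (-0.54 ± 0.11) and the pericentral marker Oat (-0.79 ± 0.20) had a lower one. These were 1 of 8 Kupffer, 1 of 5 endothelial, 1 of 4 cholangiocyte, 1 of 7 periportal and 2 of 8 pericentral markers, and their part in the change was not tested.

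Between day 1 and day 2 the ozone effect changed in 0 of the 9 genes in limma, and 3 of 9 had an unadjusted p under 0.05. Of all genes tested, 5.09% passed and 19.8% had an unadjusted p under 0.05. These were Got1 (-1.50 ± 0.48; adjusted p = 0.0597), Sds (-1.70 ± 0.52; 0.0528) and Aass (-0.52 ± 0.16; 0.0579), all just short of the threshold. Single arrays took them across it. Sds passed without air replicate 4 or 5 of day 1, without ozone replicate 1, 3 or 4 or air replicate 1 of day 2, or without air replicate 1 or 5 at 18 h (adjusted p = 0.0175 to 0.0494). Got1 passed without air replicate 4 of day 1, ozone replicate 3 or 4 of day 2 or air replicate 1 of day 2 (0.0249 to 0.0492), and Aass passed without those same 4 arrays or ozone replicate 2 of day 1 (0.013 to 0.0452). Without both replicates 5 of day 2 the changes were smaller, at -0.71 ± 0.29 for Got1, -1.07 ± 0.43 for Sds and -0.32 ± 0.14 for Aass (adjusted p = 0.227, 0.231 and 0.302). Between day 2 and 18 h, 0 of 9 passed and 7 had an unadjusted p under 0.05, while of all genes 0.0086% passed and 8.68% had an unadjusted p under 0.05. Without both replicates 5, 7 of 9 passed and all were lower at 18 h, led by Got1 at -2.46 ± 0.30 and Sds at -2.01 ± 0.45, beside 2.91% of all genes that were lower. Leaving out only ozone replicate 5 gave 4 of 9 (0.705% of all genes), and only air replicate 5 gave 1 (1.86%).

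Among air livers alone, 0 of 9 genes passed between harvest times in limma, while 0.0086% of all genes passed for day 2 minus day 1 and 0.12% for 18 h minus day 2. At an unadjusted p under 0.05 there were 5 of 9 for day 2 minus day 1, beside 6.66% of all genes, and 2 of 9 for 18 h minus day 2, beside 9.41%. Without both replicates 5 of day 2, Sds (limma unadjusted p = 0.0309) and Gls2 (0.0106) stayed under 0.05 for day 2 minus day 1. Gpt (0.262), Aass (0.0815) and Tdo2 (0.0844) did not. For 18 h minus day 2, Sds (0.000872) and Gls2 (0.0401) stayed under it. The share of all genes under 0.05 in that fit was not computed. Sds had the widest difference, -1.35 ± 0.39 for 18 h minus day 2 (adjusted p = 0.175), and its air medians were 1713 on day 1, 3118 on day 2 and 1178 at 18 h. For this contrast 1 of 9 genes passed when either day 2 ozone replicate 5 or 18 h air replicate 5 was left out, beside 0.301% and 0.714% of all genes. Got1 medians in air were closer, at 1262, 1854 and 1374 in the same order.

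In the order of group means, day 1 ozone was highest for 6 of the 9 genes (Got1, Got2, Sds, Tat, Aass and Tdo2) and day 2 ozone for Gpt, Hal and Gls2. Ozone at 18 h was lowest for Got1, Sds, Tat, Hal and Gls2, air at 18 h for Got2, and day 1 air for Gpt, Aass and Tdo2. Most neighbours in these orders overlapped. The exceptions were Got1, where the lowest day 1 ozone array lay above the highest day 2 ozone array, and Sds, where the highest ozone array at 18 h lay below the lowest air array of that time. Got2 varied least, with group means between 11.49 ± 0.06 (air at 18 h) and 11.67 ± 0.06 (day 1 ozone), SD over 5 and 6 arrays.

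Across the 32 arrays the levels of several members ran together, as a description that includes the differences between groups. Got1 and Sds had a Pearson r of 0.945, and 0.905 once each array was set against its group mean. Got1 and Hal had 0.877 and 0.855. The values within groups hold both replicates 5 of day 2, which lay far from their group means, and were not computed without them. For Got1 the log2 level was 9.72 on the ozone one (group mean 11.67) and 12.13 on the air one (group mean 10.92). Got2 had 0.614 with Got1 over all arrays but 0.234 within groups, and Gpt had between 0.024 (Tat) and 0.594 (Tdo2) with the others over all arrays. By likeness over the 32 arrays, the genes nearest to Got1 were Slc25a15 (r = 0.962), Mdh1 (0.962) and Hacd3 (0.956), and those nearest to Sds were Got1 (0.945), Ethe1 (0.942) and Slc25a15 (0.926). Tat was most like Mfsd2a (0.858), Osbpl1a (0.836) and Acy1 (0.836), and Gpt was most like Ttc36 (0.894), Ahcy (0.866) and Gchfr (0.854). Slc16a10 was the nearest gene to Aass (0.931) and the 2nd nearest to Tdo2 (0.924), for which Arg1 (0.932) came first and Edem1 (0.92) followed. Aass was next most like Agxt (0.912) and Prkar2a (0.912). Hal was most like Plpbp (0.915), Hs2st1 (0.906) and Manea (0.904), Gls2 like Sdhd (0.893), Mbnl3 (0.88) and Oat (0.87), and Got2 like Tmed10 (0.776), Pms2 (0.763) and Atp5f1a (0.751). All these values share the same arrays and their group differences.

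**Figure D4:**
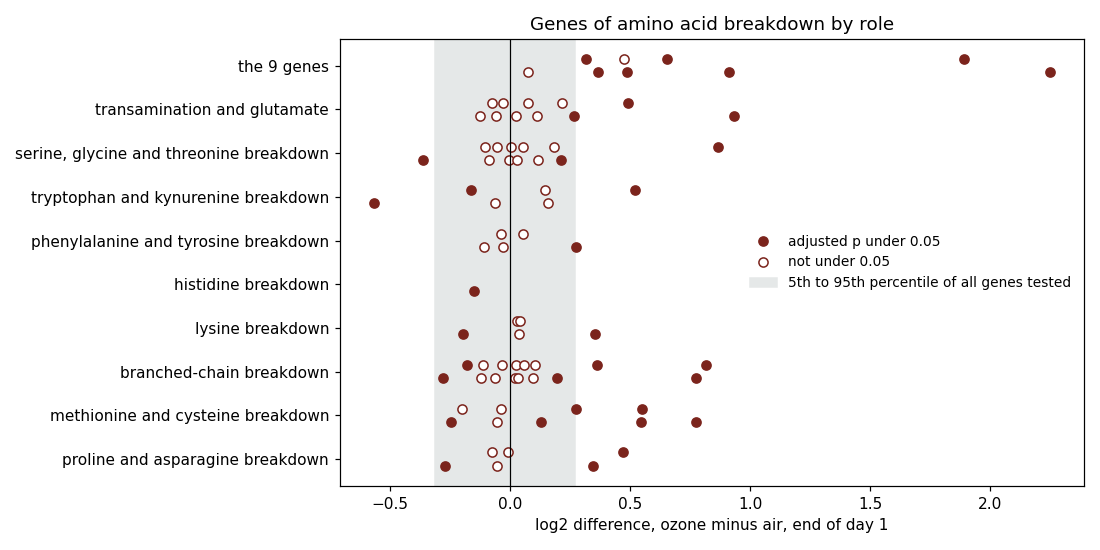
Difference of ozone minus air on day 1 (log2 scale) for the 9 genes and for 71 other genes of amino acid breakdown, 1 row per role. Filled points passed the test, and the grey band spans the 5th to the 95th percentile of all genes tested (-0.31 to 0.27).

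Other genes of amino acid breakdown were read from a list of 85, of which 71 could be tested. On day 1, 19 of them rose and 9 fell, beside 13.1% and 16.4% of all genes tested, and their median difference was 0.03. The list held rises and falls together, while the 9 genes had 7 rises and 0 falls. Both the 9 genes and the list were chosen with earlier results of these data known. The part of that choice in this contrast was not tested. On day 2, 3 of 71 rose and 0 fell, beside 0.465% and 0.241% of all genes. Without both replicates 5, 21 rose and 1 fell, beside 6.25% and 6.49%. At 18 h, 3 rose and 0 fell (0.86% and 0.31% of all genes), or 4 and 2 without both (1.99% and 0.826%).

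Among genes of transamination and glutamate, 3 of 11 rose on day 1 and 0 fell, beside 13.1% and 16.4% of all genes tested. Agxt, which passes the amino group of alanine to glyoxylate, read 1203, 1351.5 and 1468 (lowest, median, highest) after ozone and 666, 692 and 746 after air, and rose by 0.93 ± 0.12 (limma adjusted p = 5.3e-07). Its groups did not overlap. Kyat1, a kynurenine aminotransferase, rose by 0.27 ± 0.06 (adjusted p = 0.000778). Of 12 genes of serine, glycine and threonine breakdown 2 rose and 1 fell. Sardh, sarcosine dehydrogenase, rose by 0.87 ± 0.11 (adjusted p = 1.13e-06), and Srr, serine racemase, by 0.21 ± 0.04 (9.51e-05).

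Downstream of the members, the roles are short lists, and their day 1 counts stand beside 13.1% of all genes that rose and 16.4% that fell. Tryptophan genes went both ways. Of 6 tested, 1 rose and 2 fell on day 1: Qprt, which leads from quinolinate to NAD, rose by 0.52 ± 0.09 (adjusted p = 9.26e-05), and Kmo, kynurenine monooxygenase, fell by 0.57 ± 0.09 (2.23e-05). Kmo read 524.5 to 725 after ozone and 863 to 993.5 after air on day 1, below air without overlap while Tdo2 was above it. At 18 h Kmo read 1153 to 1364 after ozone and 783 to 1258 after air, and rose by 0.40 ± 0.10 (adjusted p = 0.0437). The groups overlapped, and the call was lost without any 1 of the 18 h arrays but air replicate 1 (adjusted p = 0.0516 to 0.171). It was also lost, at 0.0502 to 0.0522, without 1 of 9 other arrays (ozone replicate 6 and air replicates 1, 2, 3, 5 and 6 of day 1, and air replicates 2, 3 and 4 of day 2). In histidine breakdown the 1 gene tested, Ftcd, which acts after Hal, fell by 0.15 ± 0.05 on day 1 (adjusted p = 0.0191, or 0.0758 without ozone replicate 2). In lysine breakdown 1 of 5 rose and 1 fell: Dlst, a subunit shared by ketoacid dehydrogenases, rose by 0.36 ± 0.05 (adjusted p = 2.78e-06), and Dhtkd1, which oxidises alpha-ketoadipate, fell by 0.20 ± 0.05 (0.00158). Of 5 genes of phenylalanine and tyrosine breakdown 1 rose, Qdpr, which restores the cofactor of phenylalanine hydroxylase, by 0.27 ± 0.07 (adjusted p = 0.00181). Gstz1, a late enzyme of tyrosine breakdown, had a difference of -0.04 ± 0.06 on day 1 and rose by 0.33 ± 0.06 at 18 h (adjusted p = 0.00918).

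Branched-chain genes gave 4 rises and 2 falls among 16 on day 1, beside 13.1% and 16.4% of all genes tested. Auh, a hydratase of leucine breakdown, rose by 0.36 ± 0.05 (adjusted p = 8.22e-06), and Dbt, the core subunit of branched-chain ketoacid dehydrogenase, by 0.78 ± 0.12 (1.23e-05). Methionine and cysteine genes gave 5 rises and 1 fall among 9. Cbs, cystathionine beta-synthase, read 2076 to 2300.3 after ozone and 1156 to 1420.5 after air and rose by 0.77 ± 0.10 (adjusted p = 1.7e-06), and Mat1a, which makes S-adenosylmethionine, rose by 0.55 ± 0.08 (5.61e-06). Of 6 genes of proline and asparagine breakdown 2 rose and 1 fell, among them the asparaginases Aspg, which rose by 0.47 ± 0.07 (adjusted p = 3.05e-06), and Asrgl1, which fell by 0.27 ± 0.06 (0.000432).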

How the data were processed

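Liver RNA of 32 samples in 6 groups was measured on 1-colour Affymetrix rat arrays. The submitters' processing notes name PLIER and Affymetrix Expression Console, with roles and versions not given in the sources used here; the values the authors deposited are linear intensities per probe set (30.53 to 15557.8); array medians were 146.6 to 160.6, so no further scaling was applied. From these deposited intensities, log2(intensity + 16) was computed, so a log2 difference understates the change of dim genes. Of 31139 probe sets, 97 controls, 573 with several genes and 11407 with no gene in the annotation used were set aside. The brightest of the remaining 19062 stood for each of 13437 genes, and 11625 above the 25th percentile (log2 level 7.11) were tested. Columns were matched to samples by their labels, and groups came from the labels. The limma model (version 3.58.1, R 4.3.3) held the 6 group means, with an intensity trend in the variance, 2-sided tests and Benjamini-Hochberg adjustment over all 11625 genes at 0.05. Contrasts were ozone minus air at each time, differences between those effects, and air between times. It was tested on simulated data first. Other steps used pandas 2.3.3 and numpy 2.4.6 in Python 3.11.15, with plots by matplotlib 3.10.9. The members and the pathway and marker lists were chosen with earlier results of these data known. Named genes are all 9 members, per pathway role the 2 genes with the smallest p on day 1 among those past the threshold at any time, and the 3 genes most like each member by Pearson r (uncharacterised LOC and RGD names passed over); Alb, the neutrophil genes and the markers that passed were named in addition, after their values were seen. Upstream windows came from RefSeq (GRCr8); no protein sequence was used here. Alternatives changed the offset, filter, normalization, probe set, blocking, array weights, variance trend and arrays. Same-numbered ozone and air samples did not deviate together, so replicate numbers were not taken as pairs.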

Additional observations from a re-analysis of the deposited data

Results flagged for a closer look

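Within the 6 groups of each gene, 8 of 54 group checks had 1 array far from the others by Dixon's test, which chance alone does in about 1 of 20. Of these, 6 came from the same array, day 2 ozone replicate 5, which was the lowest of its group for Got1 (829.9), Sds (879.8), Tat (864.0), Aass (3050.7), Hal (1365.0) and Gls2 (2607.3). Those 6 checks share 1 array and are not independent of each other. The other 2 were day 1 ozone replicate 5 for Got2 (2983.0) and day 1 ozone replicate 2 for Aass (3942.2), each the lowest of its group.

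The ozone effect differed between 18 h and day 1 in 7 genes, by the test of that difference in limma, and each of the 7 was lower at 18 h. The differences were -3.17 for Got1, -3.08 for Sds, -1.37 for Tat, -0.97 for Aass, -0.66 for Hal, -0.53 for Tdo2 and -0.51 for Gls2 on the log2 scale. Got1 and Sds had ozone above air in 6 of 6 ozone arrays on day 1 and below air in 5 of 5 at 18 h.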

How the results depend on the processing

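Over 46 alternatives, 32 of which left out 1 array, 2750 of 2885 single-gene values kept both their direction and their side of the threshold, 60 lost a call, 57 gained one and 18 changed sign. The count of members that passed was 7 on day 1 (6 to 8 over the alternatives) and 7 for the change to 18 h (6 to 7). Elsewhere the counts moved, and the cause was not tested beyond what each alternative leaves out. For day 2 (1 of 9), the count was 0 without a filter, with the replicate block, with only the 2 groups in the fit and without the 2 arrays of low nonspecific signal, 5 with array weights, without both replicates 5 and without 4 arrays (those and air replicates 1 and 5 at 18 h, chosen after the data were seen), and 0 to 5 without 1 array. For 18 h (0 of 9), it was 3 with array weights, without both and without 4 arrays, and 0 to 2 without 1 array. For the change to day 2 (0 of 9), it was 1 with an offset of 64, 3 with quantile normalization, 2 with array weights and 0 to 3 without 1 array. For day 2 to 18 h (0 of 9), it was 6 with array weights, 7 without both or 4 arrays and 0 to 4 without 1 array, and for air at 18 h minus day 2 (0 of 9) it was 1 with array weights, 1 without 4 arrays and 0 to 1 without 1 array. Of the 71 pathway genes, 3 passed on day 2: 1 without a filter, 0 with the replicate block, 25 with array weights, 0 with only the 2 groups, 22 without both, 25 without 4 arrays, 1 without the low nonspecific arrays and 0 to 17 without 1 array. At 18 h 3 passed: 1 with the replicate block, 12 with array weights, 0 with only the 2 groups, 6 without both, 11 without 4 arrays and 1 to 8 without 1 array. Over all genes, 82 passed on day 2 and 136 at 18 h, against 2032 and 614 with array weights, 1480 and 327 without both, 3 and 35 with the replicate block and 1 and 1 with only the 2 groups.

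Signs turned for small differences. The change to day 2 was 0.03532, 0.002024 and 0.002024 for Got2 with array weights, without both and without 4 arrays, and 0.19, 0.27 and 0.27 for Hal (from -0.16 to 0.12 without 1 array, the highest without day 2 ozone replicate 5). At 18 h Hal was at 0.01688 without 4 arrays and from -0.05433 to 0.07973 without 1 array, Aass from -0.12 to 0.002176 and Got2 from -0.01066 to 0.04538. On day 2 Got2 was at -0.01878 by its other probe set, Sds from -0.07549 to 0.65 and Tat from -0.04997 to 0.40 without 1 array. On day 1 Gstz1 lay from -0.07578 to 0.007147 without 1 array, the highest without ozone replicate 5.

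Same-numbered ozone and air samples deviated together (r over 0.1) in 2 of 16 pairs, with r from -0.58 to 0.26. With the replicate block, 6 members passed on day 1 (Gpt adjusted p = 0.064), 0 on day 2 (Gpt 0.153) and 6 for the change to 18 h (Hal 0.115), and 25 pathway genes on day 1. With 5 or 6 arrays a group, the number of arrays limits the precision.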
